A study of Homo sapiens with 9 samples.

Results

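Transferrin receptor 2 (TFR2) and 9 other genes that take up, store, export or sense iron were examined after knockdown of ASXL2 in SKNO-1, a line of human acute myeloid leukaemia cells with the AML1-ETO fusion. The genes were picked by symbol: the receptors TFR2 and TFRC, the reductase STEAP3, the importer SLC11A2, the exporter SLC40A1, the ferritin subunits FTH1 and FTL, the iron sensors IREB2 and ACO1, and the haem-degrading enzyme HMOX1. They are 10 of 25680 gene symbols with counts, and all 10 passed the filter on low counts, as did 14199 symbols in all. TFR2 was included because it had risen with each shRNA in an earlier paired fit of these same samples, so its difference from control is described here without a test.

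RNA was sequenced from 9 samples in 3 groups of 3: a control vector (EV in the labels, described as a control shRNA by the study and written shControl here), shASXL2-2 and shASXL2-3 (SH2 and SH3 in the labels). All 9 samples carry AML1-ETO and all come from 1 cell line grown with the cytokine GM-CSF. Each group has replicate numbers 1, 13 and 25 in the labels, which do not say what the numbers stand for or whether the samples were separate cultures, so p-values measure only the spread between these samples. The extraction text in the labels describes sorted bone marrow cells, which is not the stated cell line. In bulk RNA, fewer cells with a transcript and less of it per cell cannot be told apart.

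With 1 RefSeq transcript row per gene, the libraries held 27714431 to 35406063 counts, and 3 counts in a library came to 0.0847 to 0.108 CPM (counts scaled to a common library total). ASXL2 itself lay at 67.9, 67.9 and 74.7 CPM in shControl, 30.4, 36.2 and 36.2 CPM in shASXL2-2 and 26.9, 29.1 and 41.1 CPM in shASXL2-3. All 6 knockdown samples were below all 3 controls. Of 7 myeloid blast markers, 6 passed the filter, with MPO, the granule peroxidase, at 6368 to 10243 CPM, while CD34 had 40 counts over the 9 libraries. The samples numbered 1 stood apart from those numbered 13 and 25, so each knockdown comparison was repeated with this number as a replicate block. The biological coefficient of variation, the typical relative spread between replicates, was 0.192 without the block and 0.0875 with it. Without the block the spread between numbers stays in the error, so an adjusted p near 1 there does not show an unchanged gene.

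Iron reaches most cells bound to transferrin. The transferrin receptor TFRC carries it into endosomes, STEAP3 reduces it there, SLC11A2 moves it into the cytosol, ferritin stores it and ferroportin (SLC40A1) releases it from the cell. When iron is scarce, the iron regulatory proteins encoded by ACO1 and IREB2 bind iron-responsive elements, short hairpins in mRNA, which stabilises TFRC mRNA and blocks translation of ferritin and ferroportin. TFR2 is a related receptor of liver and erythroid precursors, where it senses transferrin loaded with iron and, with HFE, feeds into the control of hepcidin and, with the erythropoietin receptor, into red cell formation.

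The hairpins are shown to separate the genes with an exact match to 1 pattern from those without. Canonical transcripts of the 10 genes were searched for an unpaired C, 5 bases, the loop CAGTGN and 5 bases able to pair with the first 5, G with T included, on the transcript strand. Capitals mark the loop. Positions are on GRCh37 and the sequences were read from that genome.
TFRC site 1 (chr3:195777849-195777878, minus strand, 3′ UTR, exon 19): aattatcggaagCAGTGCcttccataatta
TFRC site 2 (chr3:195777445-195777474, minus strand, 3′ UTR, exon 19): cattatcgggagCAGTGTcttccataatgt
TFRC site 3 (chr3:195777380-195777409, minus strand, 3′ UTR, exon 19): ctgtatcggagaCAGTGAtctccatatgtt
TFRC site 4 (chr3:195777333-195777362, minus strand, 3′ UTR, exon 19): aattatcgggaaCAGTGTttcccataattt
FTH1 site (chr11:61735045-61735074, minus strand, 5′ UTR, exon 1): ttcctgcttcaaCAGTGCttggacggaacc
FTL site (chr19:49468592-49468621, plus strand, 5′ UTR, exon 1): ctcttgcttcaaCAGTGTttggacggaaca
SLC40A1 site (chr2:190445386-190445415, minus strand, 5′ UTR, exon 1): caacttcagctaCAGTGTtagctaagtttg

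Only 255 of 19526 canonical protein-coding transcripts (1.31%) held this pattern at least once, and 4 transcripts (0.0205%) held it more than once. Of the 10 iron genes 4 held it. These 4 were listed beforehand as mRNAs with a known element, so their share was set by the choice of genes and is not a result. TFRC held it 4 times in the last exon, where the stabilising hairpins of this mRNA lie, while FTH1, FTL and SLC40A1 held it once in the first exon, ahead of the coding sequence. In TFR2, SLC11A2, STEAP3, IREB2, ACO1 and HMOX1 this exact pattern was not found, which says nothing of looser forms of the hairpin. SLC11A2 is among the mRNAs listed with a known iron-responsive element, so a missing match does not place a gene outside this control.

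Levels in the control cells were compared per kilobase of canonical transcript, since longer transcripts collect more reads. FTL stood highest at 2092 ± 273 CPM per kb (SD, n = 3), followed by FTH1 at 370 ± 33.8 and TFRC at 311 ± 3.48 CPM per kb, and these 3 levels did not overlap between samples. IREB2 followed at 29.2 ± 1.37 CPM per kb and TFR2 at 25.7 ± 2.27 CPM per kb, and their samples overlapped. ACO1 (11.6 ± 1.72 CPM per kb), STEAP3 (10.1 ± 0.813), SLC11A2 (9.01 ± 0.469) and SLC40A1 (7.92 ± 1.27) formed a lower tier in which every neighbour in this order overlapped. HMOX1, which opens the haem ring and frees its iron, was lowest at 1.17 ± 0.248 CPM per kb. Control cells thus held far more mRNA for ferritin and the first transferrin receptor than for TFR2. The FTH1 and FTL rows may hold reads of near-identical copies, since the annotation lists 25 FTH1 and 16 FTL pseudogenes.

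TFR2 occupies chromosome 7 from 100218039 to 100240402 (GRCh37, minus strand), with 18 exons in its canonical transcript, and was counted as NM_003227. Its normalized read count was 80.6, 67.5 and 74.5 CPM in shControl samples 1, 13 and 25. It was 120, 109 and 102 CPM in shASXL2-2 and 103, 92.7 and 92.2 CPM in shASXL2-3. Every knockdown sample was above every control, and in each of the 6 same-number pairs the knockdown sample was higher, by 1.24 to 1.61 fold. Over all genes, 4.77% had their 6 knockdown samples all on 1 side of the 3 controls and 2.16% all above, but TFR2 was selected for this contrast, so nothing is read from its place among them. The fitted log2 difference from control was 0.57 for shASXL2-2, 0.37 for shASXL2-3 and 0.47 for both averaged. No SE is given, since TFR2 was selected on these values. The group means were 74.2 ± 6.56, 110 ± 9.29 and 96.0 ± 6.19 CPM (SD, n = 3).

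**Figure D1:**
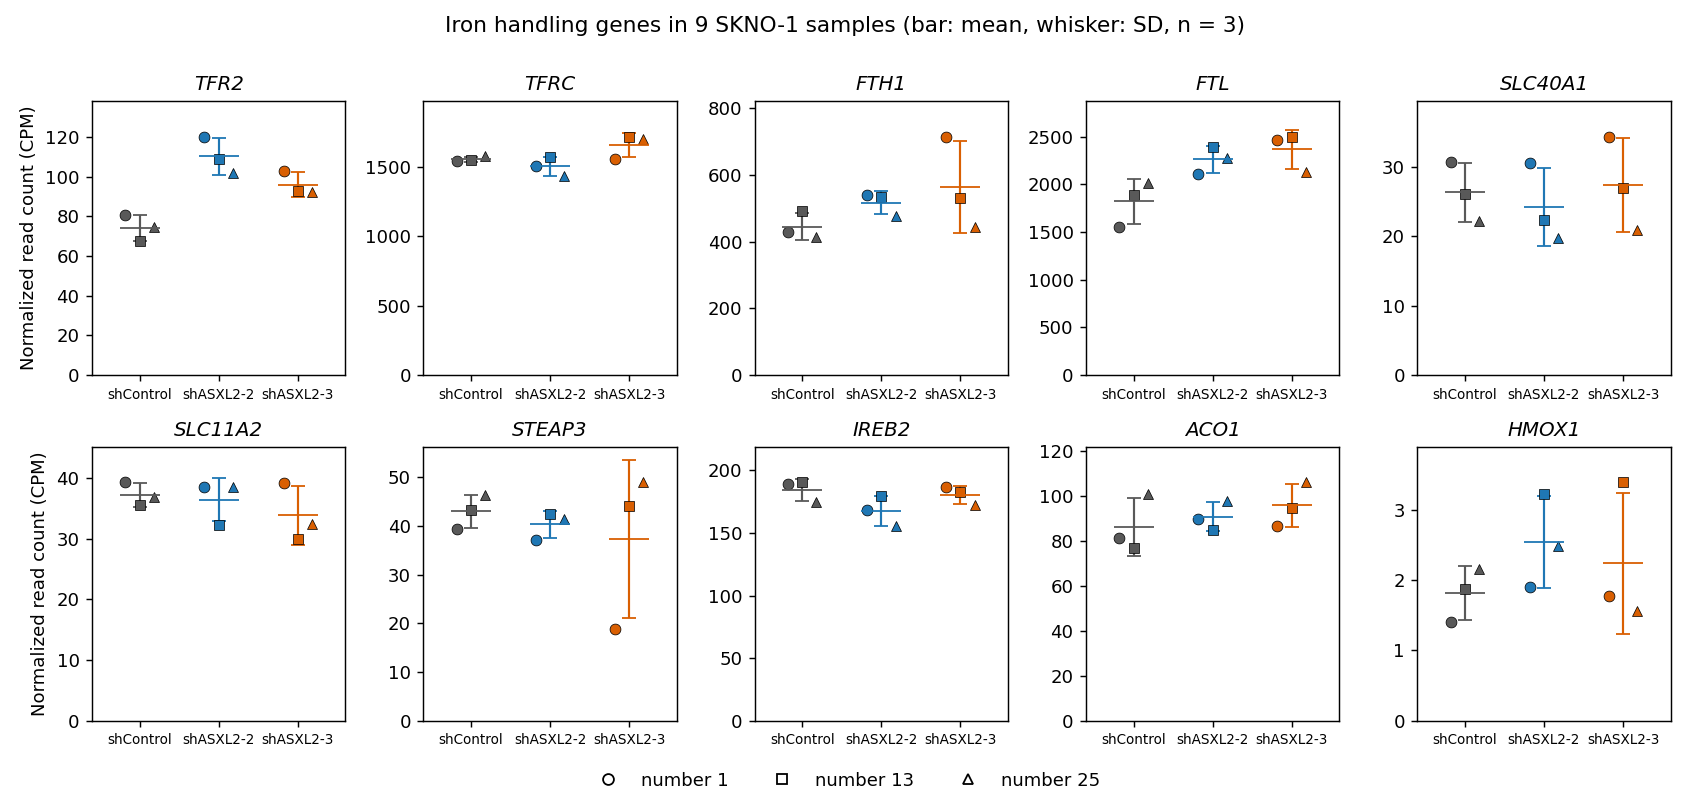
Normalized read count (CPM, vertical axis from 0) of the 10 iron handling genes in shControl, shASXL2-2 and shASXL2-3. Points are samples, shaped by replicate number, the horizontal bar is the mean and the whiskers are the SD of 3 samples. In FTL all 6 knockdown samples sit above the 3 controls, as for 2.16% of all genes. They do so in TFR2 as well, but TFR2 was selected for this contrast, so nothing is read from it. In STEAP3 the shASXL2-3 sample numbered 1, at 18.9 CPM, sits below the other 8.

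The shRNAs were also compared with each other. This contrast uses the same knockdown samples whose rise led to the choice of TFR2, so it is not free of that choice. TFR2 was less abundant in shASXL2-3 cells than in shASXL2-2 cells, with a log2 difference of -0.20 ± 0.10 (SE). It did not pass the threshold of 0.05 (adjusted p = 0.998, edgeR quasi-likelihood test with Benjamini-Hochberg adjustment over all genes, and 0.282 with the replicate block). In each number the shASXL2-2 sample was nonetheless the higher of the pair. The other RefSeq row of TFR2, NM_001206855, held 91.1% to 92.8% of the counts of the row used in every library, with log2 ratios of the means of 0.58 and 0.37, so both rows gave nearly the same difference. These rows share most of their reads and are not separate measurements.

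TFRC, the receptor that most cells use to take up transferrin, lies on chromosome 3 (195739382 to 195809024, minus strand). Its normalized read count was 1545, 1550 and 1577 CPM in shControl, 1512, 1573 and 1434 CPM in shASXL2-2 and 1560, 1720 and 1703 CPM in shASXL2-3. The groups overlapped, and 4 of 6 same-number pairs were above their control, by no more than 1.11 fold. The log2 difference was -0.05 ± 0.10 for shASXL2-2 (adjusted p = 0.996, edgeR) and 0.09 ± 0.10 for shASXL2-3 (adjusted p = 0.981, edgeR). Among the 10 genes TFRC had the smallest relative spread in control cells, with an SD of 17.5 CPM on a mean of 1557 CPM.

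FTL, the light chain of ferritin, lies on chromosome 19 (49468566 to 49470136, plus strand). It was counted at 1557, 1891 and 2018 CPM in shControl, 2113, 2391 and 2282 CPM in shASXL2-2 and 2468, 2500 and 2136 CPM in shASXL2-3. All 6 knockdown samples were above all 3 controls, as for 2.16% of all genes, and the 6 same-number ratios ran from 1.06 to 1.59 fold. The log2 difference was 0.31 ± 0.13 for shASXL2-2 (adjusted p = 0.907, edgeR) and 0.38 ± 0.13 for shASXL2-3 (adjusted p = 0.967, edgeR). For both shRNAs averaged it was 0.35 ± 0.11, with an adjusted p of 0.675, and 0.0917 with the replicate block in edgeR. FTL passed the threshold in 1 of the 21 settings tried, DESeq2 with the replicate block, where the adjusted p was 0.0369 for shASXL2-2, 0.00520 for shASXL2-3 and 0.00244 for both. In that setting 2.63%, 3.34% and 4.38% of all tested genes passed. Over all genes, the log2 difference for both averaged, with the block in edgeR, fell with transcript length (Spearman correlation -0.39). The FTL transcript, at 871 nt, is shorter than the median of tested genes, 3115 nt. Over the 21 settings, a length and GC correction among them, the FTL difference for both ran from 0.24 to 0.43. The part of length in it was not tested.

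FTH1, the heavy chain of ferritin and its ferroxidase, lies on chromosome 11 (61727190 to 61735106, minus strand). Its counts were 428, 491 and 415 CPM in shControl, 538, 534 and 476 CPM in shASXL2-2 and 714, 531 and 443 CPM in shASXL2-3. Each of the 6 knockdown samples was above its same-number control, by 1.07 to 1.67 fold, but the groups overlapped. The 6 pairs share 3 controls, and the share of all genes with all 6 on 1 side was not counted. The log2 difference for both shRNAs averaged was 0.28 ± 0.14 (adjusted p = 0.806 without and 0.186 with the replicate block, edgeR). For shASXL2-3 alone it was 0.34 ± 0.16, and 0.13 ± 0.12 without the shASXL2-3 sample numbered 1, the sample at 714 CPM. The FTH1 transcript is also short, at 1203 nt, and its difference for both averaged ran from 0.13 to 0.35 over the 21 settings. Exons of FTH1 overlap BEST1 on the other strand, and the libraries kept no strand.

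The 2 ferritin subunits assemble in variable proportion, so their ratio was taken within each sample, where library scaling cancels. The count ratio of FTH1 to FTL was 0.275, 0.260 and 0.206 in shControl samples 1, 13 and 25. It was 0.255, 0.223 and 0.208 in shASXL2-2 and 0.289, 0.212 and 0.207 in shASXL2-3. The groups overlapped, and the mean log2 ratio in knockdown cells differed from control by -0.09, with p = 0.583 in a two-sided exact permutation test over the 84 ways to choose 3 of 9 samples as controls. When the controls had to include each number once (27 ways), the same exact test gave p = 0.333.

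**Figure D2:**
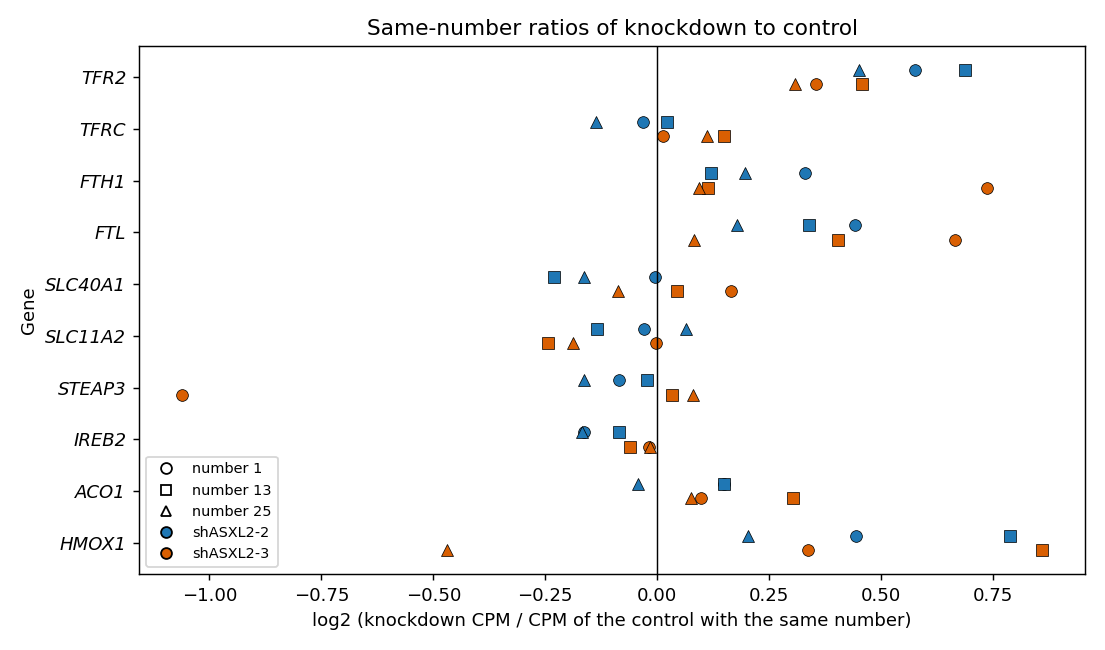
Log2 ratio of each knockdown sample to the control with the same replicate number (horizontal axis) for the 10 iron handling genes (vertical axis). Colours are the shRNAs and shapes are the numbers. For TFR2, FTH1 and FTL all 6 points lie right of 0, for IREB2 all 6 lie left of 0, and for STEAP3 a single shASXL2-3 point, at a ratio of 0.479 fold, lies far from the rest.

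For the exporter and the endosomal proteins the groups overlapped. SLC40A1, ferroportin, is the only known iron exporter of mammalian cells and lies on chromosome 2 (190425316 to 190448484, minus strand). Its values were 30.7, 26.2 and 22.2 CPM in shControl, 30.6, 22.3 and 19.8 CPM in shASXL2-2 and 34.4, 27.0 and 20.9 CPM in shASXL2-3. The 3 groups covered the same range, with 2 of 6 pairs above control and a log2 difference of -0.03 ± 0.19 for both shRNAs averaged (adjusted p = 0.992, edgeR).

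SLC11A2, the divalent metal transporter DMT1, lies on chromosome 12 (51373184 to 51422349, minus strand). Its values were 39.3, 35.5 and 36.8 CPM in shControl, 38.5, 32.3 and 38.5 CPM in shASXL2-2 and 39.3, 29.95 and 32.4 CPM in shASXL2-3. The groups overlapped, 1 of 6 pairs was above control, and the averaged log2 difference was -0.08 ± 0.11 (adjusted p = 0.963, edgeR). The other SLC11A2 rows held 74.5% to 100% of the counts of the row used.

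STEAP3, the ferrireductase of the transferrin endosome, lies on chromosome 2 (119981407 to 120023228, plus strand). Its values were 39.4, 43.2 and 46.3 CPM in shControl, 37.2, 42.5 and 41.4 CPM in shASXL2-2 and 18.9, 44.2 and 49.0 CPM in shASXL2-3. The shASXL2-3 sample numbered 1 was below all others, and the remaining 8 samples overlapped. The log2 difference of shASXL2-3 from control was -0.20 ± 0.28 (adjusted p = 0.981, edgeR), and without that sample it was 0.11 ± 0.11. The antisense gene STEAP3-AS1 overlaps STEAP3, and reads of the 2 strands cannot be told apart in these libraries.

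The groups also overlapped for both sensors. IREB2, which encodes iron regulatory protein 2, lies on chromosome 15 (78729773 to 78793795, plus strand) and was counted at 189, 190 and 175 CPM in shControl, 169, 180 and 155 CPM in shASXL2-2 and 186, 183 and 173 CPM in shASXL2-3. It was below its same-number control in all 6 pairs, by ratios of 0.890 to 0.989. These pairs share 3 controls, and the share of all genes with all 6 on 1 side was not counted. The groups overlapped, and the averaged log2 difference was -0.09 ± 0.08 (adjusted p = 0.928, edgeR, and 0.392 with the replicate block). ACO1, the cytosolic aconitase that becomes iron regulatory protein 1 when it loses its iron-sulfur cluster, lies on chromosome 9 (32384601 to 32454767, plus strand). Its values were 81.2, 76.7 and 101 CPM in shControl, 90.0, 85.1 and 97.8 CPM in shASXL2-2 and 86.8, 94.6 and 106 CPM in shASXL2-3. ACO1 was above control in 5 of 6 pairs, the groups overlapped, and the averaged log2 difference was 0.12 ± 0.11 (adjusted p = 0.935, edgeR).

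HMOX1, haem oxygenase 1, lies on chromosome 22 (35776354 to 35790207, plus strand) and rested on 43 to 110 counts per library. Its values were 1.40, 1.87 and 2.17 CPM in shControl, 1.91, 3.23 and 2.50 CPM in shASXL2-2 and 1.77, 3.40 and 1.57 CPM in shASXL2-3. These overlapped, and the averaged log2 difference of 0.40 ± 0.30 (adjusted p = 0.896, edgeR) had the widest error of the 10 genes.

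Counted together, 0 of the 9 genes other than TFR2 passed the threshold for shASXL2-2, for shASXL2-3 or for both averaged in edgeR without the block, where 0% of all genes passed and 762, 723 and 942 genes had an unadjusted p under 0.05. With the replicate block 0 of 9 passed as well, against 0.282%, 0.416% and 1.1% of all genes, and with DESeq2 and the block 1 of 9, FTL, passed in each. Between the shRNAs 0 of 10 passed, against 0% of all genes without the block (293 with an unadjusted p under 0.05) and 0.106% with it. Of the 9 genes, 5 had a positive log2 difference for both shRNAs averaged, with a median of 0.02 beside 0.01 over all genes, of which 53.0% were positive.

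The replicate numbers moved several of these genes. The samples numbered 1 were compared with those numbered 13 and 25 in a fit with group and number. Earlier results of these data had already shown that the samples numbered 1 stand apart. TFR2 was chosen on another contrast, but in a paired fit of these same samples, so its p-value here is not wholly free of that choice. In the comparison of numbers 4 of the 10 genes passed the threshold, while 46.3% of all tested genes did. The iron genes were thus not called more often than the rest. Higher calls made up 24.1% and lower calls 22.2% of all genes.

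SLC40A1 showed the clearest of these differences. It was higher in number 1 by 0.47 ± 0.07 on the log2 scale (adjusted p = 0.000745, edgeR), and the number 1 samples, at 30.6 to 34.4 CPM, were above the other 6 samples, whose highest value was 27.0 CPM. It passed in all 16 settings in which this contrast was fitted. TFR2 was higher in number 1 by 0.18 ± 0.06 (adjusted p = 0.0266, edgeR), and within each group its number 1 sample was the highest. TFR2 passed in 9 of 16 settings.

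SLC11A2 was higher in number 1 by 0.19 ± 0.07 (adjusted p = 0.0357, edgeR) and passed in 6 of 16 settings. STEAP3 was lower, at -0.51 ± 0.17 (adjusted p = 0.0329, edgeR) and passed in 11 of 16, but without the shASXL2-3 sample numbered 1 the difference shrank to -0.18 ± 0.06. Between numbers 25 and 13, 0 of the 10 genes passed in edgeR, against 5.87% of all genes (3384 genes at an unadjusted p under 0.05), and DESeq2 called 1, ACO1, against 6.91%. ACO1 was higher in number 25 by 0.25 ± 0.07 (adjusted p = 0.0645, edgeR) and SLC40A1 lower, at -0.26 ± 0.08 (adjusted p = 0.0845, edgeR). Without the shASXL2-3 sample numbered 1, edgeR called 3 of the 10 genes in this contrast (FTH1, SLC40A1 and ACO1), and the share over all genes also went up, from 5.87% to 19.2%. What the numbers stand for is not in the labels, and the cause was not tested.

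**Figure D3:**
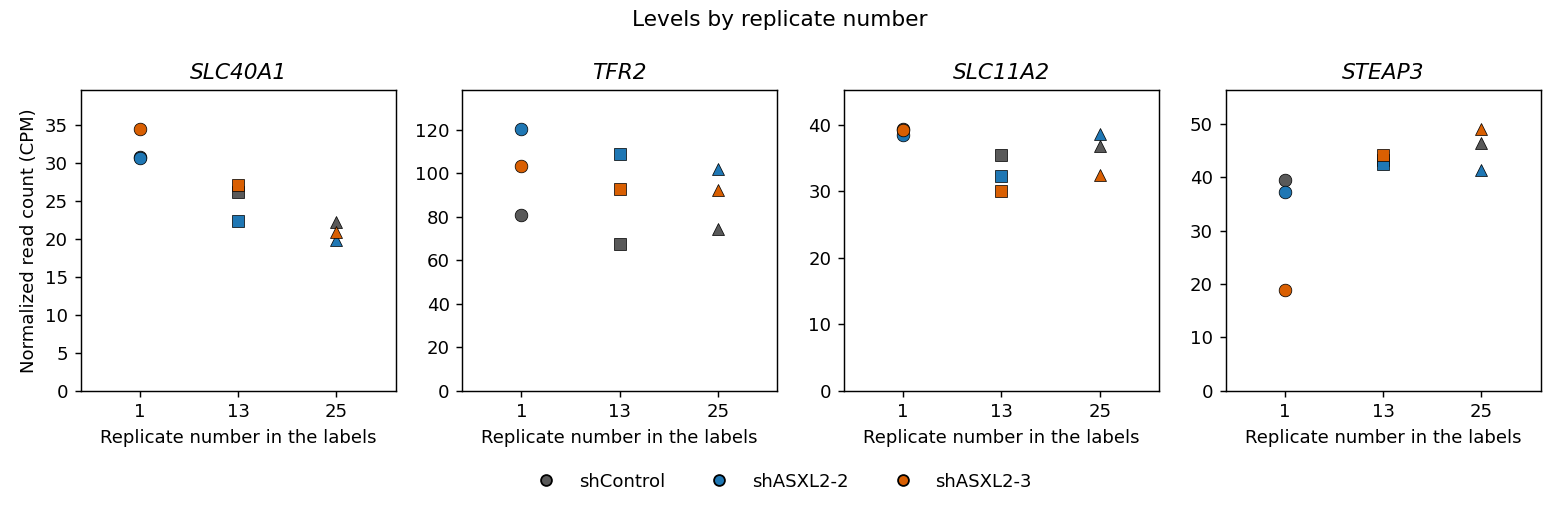
Normalized read count (CPM, vertical axis from 0) of SLC40A1, TFR2, SLC11A2 and STEAP3 by replicate number in the labels (horizontal axis), with 1 point per sample and colours for the groups. The 3 SLC40A1 points of number 1 lie above all others, at 30.6 CPM or more. For TFR2, which was selected for its rise with each shRNA, the knockdown points lie above the control within every number.

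Of 16 counted genes in the list of receptor partners and the hepcidin pathway, 9 passed the filter. These were BMP6, SMAD1, SMAD4, SMAD5, SMAD6, SMAD7, ID1, EPOR and FURIN. Others of the list were scarce. HFE, which binds TFR2 and TFRC, had 23 counts over the 9 libraries, hepcidin (HAMP) had 4, haemojuvelin (HFE2) had 1 and the protease TMPRSS6, which cleaves haemojuvelin, had 10. The mRNA of the ligand, transferrin (TF), had 17 counts, which says nothing of the transferrin protein that reached the cells. EPOR, the erythropoietin receptor, was present at 6.04 to 13.6 CPM.

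Markers of the cell types known for TFR2 were few. Of 13 erythroid markers 3 passed the filter (KLF1, GATA1 and EPOR), and HBB, HBG1, HBG2 and AHSP had 0 counts in all libraries. The summed erythroid level was 15.2 to 20.9 CPM in shControl, 20.8 to 23.0 CPM in shASXL2-2 and 14.2 to 22.1 CPM in shASXL2-3, so the groups overlapped. Of 5 hepatocyte markers 2 passed, TTR had 0 counts and ALB 31, while SERPINA1, which myeloid cells also express, reached 88.2 to 176 CPM. The summed hepatocyte level was 91.6 to 116 CPM in shControl, 101 to 146 CPM in shASXL2-2 and 88.7 to 177 CPM in shASXL2-3, and these overlapped. The part of any such cells in the TFR2 levels was not tested beyond these values. Of 5 megakaryocyte markers, ITGA2B and GP1BA passed and PF4 had 0 counts, with a summed level of 98.8 to 110 CPM in shControl, 56.7 to 69.9 CPM in shASXL2-2 and 62.7 to 145 CPM in shASXL2-3. This sum was almost wholly ITGA2B, at 55.7 to 144 CPM over the 9 libraries, beside 0.636 to 1.26 CPM for GP1BA. It was below all controls in shASXL2-2 and overlapped them in shASXL2-3, so the difference is in effect that of 1 gene. The share of all genes with shASXL2-2 below all controls was not counted. Of the monocyte and macrophage list 4 of 7 passed, with CD14 at 16 counts and a summed level of 55.7 to 63.5 CPM in shControl, 60.4 to 69.4 CPM in shASXL2-2 and 57.6 to 83.5 CPM in shASXL2-3, which overlapped. None of the 4 T and B cell markers passed.

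A wider list of 98 iron and haem genes, chosen with earlier results known, gave 96 genes in the files and 76 past the filter. For each shRNA and for both averaged, 0 of 76 passed in edgeR without the block. With the replicate block 1 of 76 passed for shASXL2-2 and for both averaged and 0 for shASXL2-3, beside 0.282%, 1.1% and 0.416% of all genes, so the count for both averaged was at the background share. The wider list had a median log2 difference of 0.07 for both averaged beside 0.01 over all genes. The gene that passed was FURIN, a protease that cleaves many secreted precursors, among them prohepcidin. FURIN lay at 169 ± 15.6 CPM in shControl, 122 ± 5.11 CPM in shASXL2-2 and 147 ± 4.09 CPM in shASXL2-3 (SD, n = 3). It was lower with shASXL2-2, at -0.47 ± 0.07 on the log2 scale (adjusted p = 0.0428 with the block and 0.808 without it, edgeR), and at -0.40 ± 0.06 (adjusted p = 0.0691) once differences that follow transcript length and GC content were removed. For both shRNAs averaged the adjusted p of FURIN was 0.0439 with the block and 0.0815 after that correction. By DESeq2 FURIN passed for shASXL2-2 with and without the block (adjusted p = 1.39e-05 and 0.00319).

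By function, the lists held 24 tested genes of iron-sulfur cluster assembly, 19 of haem synthesis and transport, 8 of haem breakdown and 9 of the hepcidin pathway, and FURIN was the only gene among them to pass in edgeR for the knockdown, with the block. In number 1 against 13 and 25, 19 of 76 genes of the wider list were higher and 25 lower, beside the 24.1% and 22.2% of all genes given above. Examples were the metalloreductase STEAP4, higher by 2.40 ± 0.19 on the log2 scale, the ferric reductase CYBRD1, higher by 0.67 ± 0.07, and the hepcidin-inducing ligand BMP6, lower at -0.70 ± 0.08. SMAD7, an inhibitor of BMP signalling, was lower in number 1, at -1.22 ± 0.15 on the log2 scale, and at 3.71 to 5.86 CPM these samples lay below number 13, at 13.2 to 19.3 CPM. LRP1, a haemopexin receptor, was higher by 1.56 ± 0.46, but its number 1 samples (0.268 to 1.43 CPM) overlapped number 13 (0.251 to 0.510 CPM). The highest was the shASXL2-3 sample, without which the LRP1 difference was 0.54 ± 0.41 (adjusted p = 0.329, edgeR). STEAP4, CYBRD1, BMP6 and SMAD7 passed with each of the 9 samples left out in turn, and LRP1 in 6 of 9.

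Between numbers 25 and 13, 3 of the 76 genes were higher and 5 lower, beside 2.77% and 3.1% of all genes. The log2 difference was -1.21 ± 0.16 for SMAD7, -0.56 ± 0.08 for SMAD6, a related inhibitor, and -0.52 ± 0.12 for IBA57, of iron-sulfur cluster assembly. BOLA3, also of cluster assembly, was higher by 0.33 ± 0.09 and SLC39A14, a metal importer, by 0.32 ± 0.08. With 1 sample left out, SMAD7 passed in 8 of 9 fits, SMAD6 in 7, and IBA57, BOLA3 and SLC39A14 in 3 each.

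The genes whose pattern over the 9 samples was most like that of TFR2 were found by the root mean square distance of log2 CPM, each gene centred on its own mean. They were FGGY, a carbohydrate kinase, at a distance of 0.0841, JOSD2, a deubiquitinase, at 0.103 and CKM, muscle creatine kinase, at 0.115, beside a median of 0.333 over 14198 genes. All 3 were far less abundant than TFR2, with control means of 3.94, 7.73 and 3.73 CPM. For TFRC the nearest were SEC22C, a vesicle transport protein, at 0.0385, ESYT2, a membrane tether, at 0.0433 and MSH3, a mismatch repair protein, at 0.0453, beside a median of 0.214. These distances describe 9 samples, with shared library scaling, and carry no test.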

How the data were processed

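RNA-seq counts of 9 SKNO-1 samples were used. Each deposited file gave raw counts for 48104 RefSeq transcripts. The submitters' processing notes name STAR, featureCounts and DESeq2 and the build hg19 (GRCh37), without versions or roles. Per the study, libraries were poly(A)-selected and unstranded. Rows of 1 gene often held the same reads, so each symbol was represented by the row with the highest total, and a shift between isoforms can move such a value. No row lacked a symbol.

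Counts were tested with edgeR 4.0.16 in R 4.3.3 (quasi-likelihood F test, TMM scaling, filterByExpr requiring 10 counts and a total of 15), with Benjamini-Hochberg adjustment over all 14199 tested genes and a threshold of 0.05. All 9 samples entered 1 fit with a term for group and 6 residual degrees of freedom. SE is the size of the log2 difference over the square root of F. CPM uses the TMM-scaled library size. The replicate number was added as a block in a second fit with 4 residual degrees of freedom, and the comparisons of numbers used group and number together. The study compared groups with Cuffdiff, which cannot be run on counts. The numbers were checked for pairing by correlating deviations from the group means between groups. All 9 same-number pairs correlated, at 0.398 or more with a mean of 0.598, while the highest value for other pairs was 0.306, so the numbers were taken to pair the samples.

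Alternatives were DESeq2 1.42.0 with and without the block, its median-of-ratios scaling, no filter, a filter of 1 CPM in 3 samples, the sum of all rows per symbol, a length and GC correction, and leaving out each sample. Leaving out the samples numbered 1 was an alternative chosen after seeing the data. Fits were tested on simulated data in which 200 genes changed by 1 on the log2 scale. With number effects as fitted, 63.5% were recovered without the block and 88.5% with it, and 0% and 4.32% of calls were false. Without number effects, 8.76% and 7.29% of knockdown calls were false, and 11.7% of calls for number 1 against 13 and 25. With no change simulated, the fit with the block called 0 genes. Other sizes of change were not simulated. Transcript lengths, hairpins and positions came from GENCODE v44 mapped to GRCh37, and 94.3% of tested genes had a length.

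The genes, the wider lists, the markers and the rule for naming genes were chosen with earlier results of these data known. The rule named the 10 iron genes, ASXL2, wider-list genes past the threshold in a knockdown comparison with or without the block, the 5 largest past it in each comparison of numbers, and the 3 genes nearest to TFR2 and to TFRC. Markers, partners of TFR2 and other examples given with counts were named from the lists. Floors cover counting error only, since reads carried no molecular identifiers.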

Additional observations from a re-analysis of the deposited data

How the results depend on the processing

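Among the 9 iron genes other than TFR2, which was not tested against control, the counts past the threshold for the knockdown stayed at 0 in every setting except DESeq2 with the replicate block, where 1 gene (FTL) passed for shASXL2-2, shASXL2-3 and both averaged. In edgeR the block changed no call among these 9. The log2 difference of TFR2 for both averaged ran from 0.41 to 0.54 over all 21 settings, with 0.47 under the block. These settings refit the samples in which TFR2 was chosen for its rise, so this range is no support for the rise. In number 1 against 13 and 25 the count of 4 of 10 became 1 with no group term (36.6% of all genes) and 2 with DESeq2 (40.7%), and it was 2 to 4 when 1 sample was left out (2 without shASXL2-2 sample 13, shASXL2-3 sample 13 or shASXL2-3 sample 25, with 41.8%, 40.5% and 37.6% of all genes). In number 25 against 13 the count of 0 became 1 with DESeq2 (6.91% of all genes) and was 0 to 3 when 1 sample was left out (3 without shASXL2-3 sample 1, with 19.2% of all genes, and 1 without shASXL2-3 sample 13, with 6.25%).

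Sign changes occurred only in log2 differences that did not pass. IREB2 with shASXL2-3 became 0.0098 with the length and GC correction, and TFR2 in 25 against 13 became -0.0038 with no group term. Without the samples numbered 1, shASXL2-3 against control became -0.015 for SLC40A1 (-0.019 with the block) and 0.055 for STEAP3 (0.055 with the block). Between the shRNAs, FTH1 became -0.055 (-0.059), FTL -0.015 (-0.017) and STEAP3 0.15 (0.14). With 1 sample left out, shASXL2-2 against control ran from -0.32 to 0.0030 for SLC40A1 and -0.083 to 0.051 for SLC11A2. In shASXL2-3 against control the range was -0.14 to 0.22 for SLC40A1, -0.44 to 0.11 for STEAP3, -0.11 to 0.52 for HMOX1 and -0.065 to 0.0022 for IREB2. In both shRNAs against control the range was -0.14 to 0.092 for SLC40A1 and -0.26 to 0.010 for STEAP3. In shASXL2-3 against shASXL2-2 the range was -0.61 to 0.034 for HMOX1, -0.084 to 0.27 for FTH1, -0.017 to 0.38 for SLC40A1, -0.35 to 0.20 for STEAP3 and -0.0016 to 0.15 for ACO1. In number 25 against 13 the range was -0.038 to 0.060 for TFR2, -0.13 to 0.23 for STEAP3, -0.072 to 0.0091 for TFRC and -0.16 to 0.064 for FTL.

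Over all genes, leaving out the samples numbered 1 moved the calls with the block from 40, 59 and 156 to 267, 341 and 370, and the length and GC correction moved them to 2, 23 and 21 of 13396 genes. DESeq2 without the block called 25 and 26 genes for the separate shRNAs. In 25 against 13 the 833 calls became 304 with no group term and 50 to 2750 when 1 sample was left out. The causes were not tested.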
